A study of Homo sapiens with 26 samples.

Results

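RNA levels of HCT116 cells that expressed the RQ linker mutant of IGF2BP1 were compared with those of cells that expressed wild-type IGF2BP1 (WT), both after arsenite. The comparison rests on 6 of the 26 libraries of the series, 3 of RQ and 3 of WT, chosen by their labels and paired by replicate number. HCT116 is a human colorectal carcinoma line. All 6 libraries came from cells with knockouts of IGF2BP2 and IGF2BP3, with Tet-OsTIR1-PURO, and with an mCherry-IGF2BP1 transgene delivered by lentivirus. RQ carries the substitutions R167Q, R168Q, R174Q and R178Q, which turn 4 arginines of the first disordered linker into glutamine. The cells were kept in 500 µM sodium arsenite for 2 h, and the matching control cells, 3 libraries for RQ and 3 for WT, received PBS. The series also holds the mutants S181E and Y396E in both treatments and 2 libraries of parental HCT116 cells. Each construct was 1 transduced population sorted for a narrow window of mCherry signal, so that a difference between constructs and a difference between sorted populations cannot be told apart. The dishes were plated independently, and poly(A) RNA was taken from clarified lysate.

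IGF2BP1 is an RNA-binding protein whose folded RNA-binding domains are joined by flexible linkers, and it binds many mRNAs in the cytoplasm and enters ribonucleoprotein granules under stress. Arsenite leads to oxidative stress and starts the integrated stress response (ISR), in which a kinase phosphorylates the initiation factor eIF2alpha. General translation then drops while the transcription factor ATF4 is made, and ATF4 together with C/EBP partners raises genes for stress regulators, amino acid synthesis and uptake, and tRNA charging. Feedback genes of the response, such as TRIB3 and PPP1R15A, later limit it.

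After arsenite, 16 of 17 tested genes in a list of ISR regulators and targets were called higher in RQ than in WT cells. So were 4 of 9 genes for serine and one-carbon synthesis and 7 of 14 for amino acid transport. Among genes for tRNA charging, 7 of 23 were called higher for the cytosol and 0 of 13 for mitochondria. Over all 9099 tested genes 2.17% were called higher, so that 0 of 13 is near this share. The lists were chosen with earlier results of these data known, so their counts are descriptions and not tests. TRIB3, an inhibitor of ATF4, rose most, by 1.82 ± 0.30 on the log2 scale. PCK2, DDIT4, SLC7A11, TSC22D3, SESN2, PSAT1 and STC2 also rose by more than 1, that is more than 2-fold. Of these, PCK2, SLC7A11 and PSAT1 were called higher in RQ control cells too, by similar changes. RQ replicate 3 was the highest RQ library in 160 of the 197 genes called higher. Falls were smaller and fewer, and the largest, of ZBED2, was -0.81 ± 0.29. ZBED2 lay under 10 CPM in every library compared. The error after each log2 change is the SD of the 3 differences between libraries of the same replicate number (n = 3 pairs).

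The files held 22868636 to 35999238 counts in the RQ arsenite libraries and 26032473 to 41467020 in the WT arsenite libraries. Levels are given as CPM, counts scaled to a common total over protein-coding genes after scaling by trimmed mean of M-values (TMM). Mitochondrial genes took 12 to 13.5% of the counts in RQ and 10.8 to 12.3% in WT, and within each pair the share was higher in RQ. Summed over the 9 epithelial markers, the level was 4890.5 to 5021 CPM in RQ and 4649.6 to 4747 CPM in WT, with VIL1 near 0 in all 6. The sum of the 7 fibroblast markers was 7.92 to 10.4 CPM in RQ and 9.73 to 11.8 CPM in WT, nearly all of it COL1A1, with COL1A2, LUM and PDGFRA at 0. The 7 blood cell markers summed to at most 0.495 CPM, and PTPRC was at 0. In RNA from whole dishes, a change in the share of cells that express a gene and a change per cell cannot be told apart.

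Of the 9099 protein-coding genes tested, 257 were called (2.82%), at an adjusted p under 0.05 in edgeR's quasi-likelihood test and a change above 1.2-fold. Of these, 197 were higher in RQ (2.17% of the tested genes) and 60 were lower (0.659%). An unadjusted p under 0.05 was reached by 2901 genes (31.9%). The median change of all tested genes was 0.00. Among the called genes, 8 rose and 0 fell by more than 2-fold, while 28 rose and 1 fell by more than 1.5-fold. Lower genes past 2-fold also numbered 0 in DESeq2 and at an unadjusted p under 0.05. The 3 RQ libraries all lay above the 3 WT libraries for 189 of the 197 higher genes and all below for 56 of the 60 lower genes. Without regard to a test, the groups did not overlap in 29.9% of all tested genes, above in 16.3% and below in 13.6%. Scaling by library totals alone gave 284 calls, of which 47.2% were higher, against 76.7% with TMM. In a fit of all gene types, 203 of 9261 genes were called higher (2.19%) and 65 lower (0.702%).

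RQ replicate 3 stood out among these genes. It was the highest of the RQ libraries in 160 of the 197 genes called higher, while replicates 1 and 2 were highest in 19 and 18. Over all 9099 tested genes the 3 libraries were highest in 3189, 2816 and 3094. Of the 60 genes called lower, 36 were lowest in RQ replicate 3. Without this library 212 genes were called, 164 higher and 48 lower, and 175 of them were among the 257. The SD of a pair difference given here includes this spread.

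With 3 pairs, the default fit gives all genes nearly the same spread, so that its adjusted p-values are far smaller than the pairs of single genes warrant. A robust fit called the same 257 genes, but it raised the error more than 1.5-fold for 5 of the 9099 genes, of which TRIB3, PCK2 and SLC3A2 were called, so it is no check on this limit for the rest. The adjusted p given for a gene is the largest from up to 17 other settings and is best read beside the SD of its pairs. The settings include the robust fit, DESeq2, fits of all 24 mCherry-IGF2BP1 libraries and the omission of each library. DESeq2 gave no adjusted p to 90 of the 257 genes and called 159 of the other 167.

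IGF2BP1 itself (ENSG00000159217.10, chromosome 17, 48997385 to 49056145 in hg38) is mostly transgene RNA here, as the parental libraries held 0.343 CPM in control and 0.638 CPM after arsenite. After arsenite it had 29.3, 27.6 and 29.7 CPM in WT and 46.6, 45.7 and 47.4 CPM in RQ. The groups lay well apart, and the change was 0.69 ± 0.03 with an adjusted p of at most 2.65e-05 (edgeR or DESeq2). In control cells the WT libraries had 10.8, 10.5 and 14.5 CPM and the RQ libraries 15.2, 12 and 15.4 CPM, which overlapped, and the change of 0.26 was not called. Thus every RQ against WT difference below was measured between populations that also differed in transgene RNA, and the part of that difference in the results was not tested. The S181E and Y396E libraries, compared with the same WT libraries, had 42.8 ± 0.68 and 42.8 ± 1.25 CPM of IGF2BP1 after arsenite (SD, n = 3). TRIB3 stood at 49.95 ± 1.73 CPM in S181E and 47.4 ± 5.49 CPM in Y396E, beside 54.1 ± 3.09 CPM in WT and 192 ± 52.7 CPM in RQ. TRIB3 was picked for its large rise, and S181E and Y396E are other substitutions in other sorted populations. The part of transgene RNA was not tested by these values. The transcripts of the disrupted paralogs were still counted. IGF2BP2 had 69.4, 72.1 and 73.5 CPM in WT and 87.7, 84.2 and 82.5 CPM in RQ, and IGF2BP3 had 113, 113 and 108 CPM in WT and 120.4, 120.3 and 127 CPM in RQ. Their changes of 0.24 and 0.15 stayed under the fold limit. Gene counts do not show the substitutions.

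**Figure D1:**
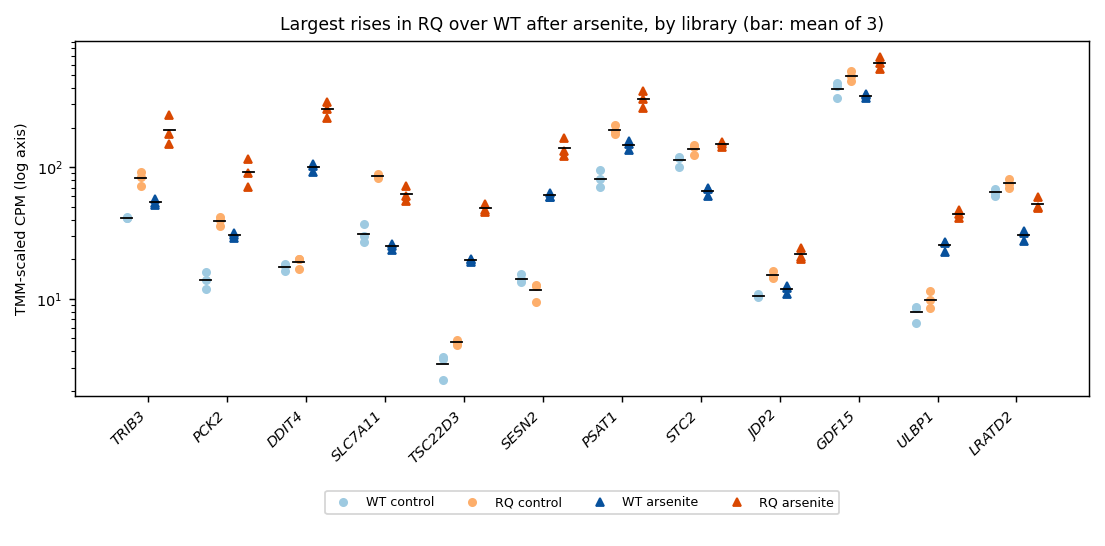
Level of the 12 genes with the largest rise in RQ over WT after arsenite, in TMM-scaled CPM on a log axis, with a point for each library and a black bar for the mean of 3. For every gene the RQ arsenite triangles lie above the WT arsenite triangles, while the control circles of RQ and WT overlap for DDIT4 and those of RQ lie below WT for SESN2.

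TRIB3 encodes a pseudokinase that binds and restrains ATF4 (ENSG00000101255.13, chromosome 20, 362835 to 397559). Its WT libraries had 51.3, 53.5 and 57.4 CPM and its RQ libraries 149, 177 and 251 CPM. The RQ libraries spread widely but the lowest was far above the highest WT library, and the adjusted p was at most 0.0448, in the robust edgeR fit. PCK2, the mitochondrial phosphoenolpyruvate carboxykinase, had 30.6, 29.1 and 31.8 CPM in WT and 70.1, 89.6 and 115 CPM in RQ. It changed by 1.59 ± 0.33, with an edgeR adjusted p of at most 0.00635, and RQ replicate 3 was again the highest. DDIT4 and SESN2 encode inhibitors of mTORC1, the kinase complex that promotes growth when nutrients are plentiful. DDIT4 (chromosome 10, 72273924 to 72276036) had 91.4, 101 and 106 CPM in WT and 238, 279 and 311 CPM in RQ, a change of 1.47 ± 0.09 with an adjusted p of at most 1.63e-10. SESN2 (chromosome 1, 28259518 to 28282491) had 59.4, 59.7 and 64.1 CPM in WT and 121, 133 and 166 CPM in RQ, a change of 1.19 ± 0.18 with an adjusted p of at most 3.01e-08. STC2, a secreted glycoprotein, had 60.1, 69.8 and 68.4 CPM in WT and 141, 151 and 154 CPM in RQ, a change of 1.17 ± 0.06. TSC22D3, a leucine zipper protein also known as GILZ, is in none of the gene lists and had 19.1, 19.6 and 20.1 CPM in WT and 45.6, 47.4 and 53 CPM in RQ, a change of 1.31 ± 0.08. The other 4 of the 12 largest rises were JDP2, a bZIP repressor, at 0.87 ± 0.13, GDF15, a secreted stress cytokine, at 0.83 ± 0.11, ULBP1, a ligand of the natural killer cell receptor NKG2D, at 0.79 ± 0.07, and LRATD2 at 0.78 ± 0.10. Each of the 12 was called in every setting that gave it an adjusted p.

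The list named ISR regulators also holds target genes of the response, such as PCK2, STC2 and GDF15. It has 19 genes, of which 17 were tested. Of these, 16 were called higher and 0 lower, with a median change of 0.71 beside 0.00 over all tested genes. The members were chosen with earlier results of these data known, so this count is not an independent test. The remaining tested member was PPP1R15A, the subunit that directs a phosphatase to eIF2alpha, with 661, 634 and 665 CPM in WT and 696, 691 and 703 CPM in RQ. Its groups did not overlap, but its change was 0.09 ± 0.03, under the fold limit. DDIT3 (CHOP), a proapoptotic C/EBP family member, had 102, 99.9 and 106 CPM in WT and 150.3, 164 and 191 CPM in RQ. It changed by 0.72 ± 0.14 with an edgeR adjusted p of at most 7.29e-07. CEBPB, another C/EBP transcription factor, changed by 0.70 ± 0.09, from 74.3, 75.4 and 81.9 CPM in WT to 114, 119.8 and 143 CPM in RQ. ATF4, outside the rule for named genes and singled out after its values were seen, had 637, 644 and 649.7 CPM in WT and 817, 852 and 906 CPM in RQ, a change of 0.42 ± 0.06. These are RNA levels, and ATF4 is largely set at translation. Of the other members, CHAC1, a glutathione-degrading enzyme, failed the filter on low values, which asks for more than 10 CPM in 12 of 24 libraries. It had 19.8, 21.1 and 22.9 CPM in WT and 68.4, 79 and 87.2 CPM in RQ, and was also singled out after its values were seen. NUPR1 was not tested either. Taken by pair, the median over the list was 0.60, 0.67 and 0.85, the last in the pair with RQ replicate 3. Over the alternatives the median stayed between 0.64 and 0.76, and 13 to 16 members were called higher at the 1.2-fold limit.

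**Figure D2:**
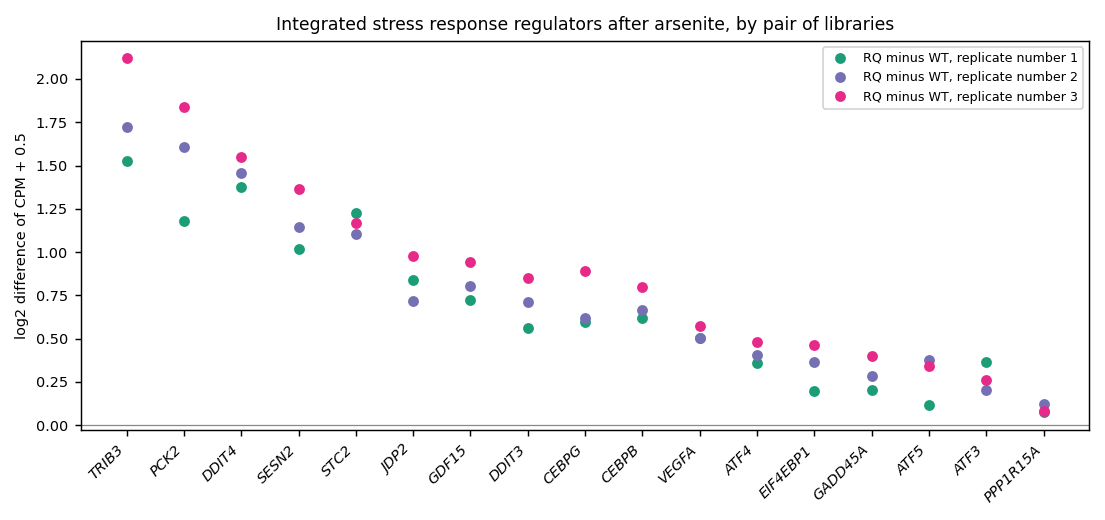
Difference between RQ and WT after arsenite in log2 of CPM + 0.5 for the 17 tested genes of the ISR list. A point stands for each of the 3 pairs of libraries. All points lie above 0, and for most genes the pair of replicate number 3 is the highest.

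The list of eIF2alpha kinases and other factors upstream of ATF4 had 16 tested genes. Of these, 1 was called higher (6.25%) and 0 lower, beside 2.17% and 0.659% over all tested genes. The median was -0.03. A single call in 16 genes cannot show whether the list differs from all tested genes. EIF2AK1 (HRI), the kinase that responds to arsenite, had 237, 239 and 234 CPM in WT and 236, 241 and 237 CPM in RQ, which overlapped. GCN1, a partner of the kinase GCN2, had 195, 182 and 178 CPM in WT and 189, 197 and 184 CPM in RQ, which also overlapped. The member called was EIF2S2, the beta subunit of eIF2, at 0.31 ± 0.06, and it lost the call when libraries were scaled by totals alone.

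Genes that make serine and charge folate with carbon were called in part. Of 9 tested, 4 were called higher and 0 lower, with a median of 0.17. PSAT1, the aminotransferase of serine synthesis, had 135, 157 and 149 CPM in WT and 283, 330.3 and 382 CPM in RQ. It changed by 1.17 ± 0.17, with an edgeR adjusted p of at most 4.08e-09. PHGDH and PSPH, the enzymes before and after it, changed by 0.70 ± 0.18 and 0.36 ± 0.14. MTHFD2, a mitochondrial folate enzyme, changed by 0.49 ± 0.11. SHMT2, which splits serine in mitochondria, had a change of 0.17 and MTHFD1 one of -0.02, and neither was called. Of 14 tested genes of other amino acid synthesis, 2 were called higher and 0 lower, with a median of 0.08. They were the aminotransferases GPT2, at 0.74 ± 0.19, and GOT1, at 0.59 ± 0.14. PYCR1 of proline synthesis had 445, 447 and 449 CPM in WT and 494, 512 and 551 CPM in RQ, a change of 0.22 under the fold limit. ASNS, asparagine synthetase, failed the filter and stood at 2.12, 2.08 and 2.03 CPM in WT and 4.73, 5.58 and 6.34 CPM in RQ.

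Of 14 tested amino acid transporter genes, 7 were called higher and 0 lower, with a median of 0.23. SLC7A11 encodes the exchanger that imports cystine for glutathione (chromosome 4, 138164097 to 138242349). It had 23.7, 26.3 and 25.1 CPM in WT and 55.2, 59.9 and 72.4 CPM in RQ, a change of 1.32 ± 0.19 with an edgeR adjusted p of at most 4.08e-09. SLC3A2, its heavy-chain partner, changed by 0.68 ± 0.16, and SLC7A5, the leucine transporter that shares this partner, by 0.67 ± 0.12. SLC1A5, a glutamine carrier, changed by 0.63 ± 0.13, and SLC7A1, a carrier of arginine and lysine, by 0.54 ± 0.13. SLC38A2, a carrier of small neutral amino acids, had 385, 403 and 396.4 CPM in WT and 516, 549.6 and 552 CPM in RQ. SLC38A1, at 0.30 ± 0.12, lost the call with totals alone and without replicate 3 of either group. SLC38A5 and SLC6A6, the uncalled members with the highest levels, had changes of 0.07 and -0.11.

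The enzymes that load amino acids on tRNA form separate cytosolic and mitochondrial sets. Of 23 tested cytosolic synthetases and partners, 7 were called higher and 0 lower, with a median of 0.14. They were CARS1 (0.67 ± 0.14), GARS1 (0.61 ± 0.14), SARS1 (0.48 ± 0.13), AARS1 (0.46 ± 0.16), YARS1 (0.41 ± 0.12), MARS1 (0.37 ± 0.12) and TARS1 (0.36 ± 0.14), named for cysteine, glycine, serine, alanine, tyrosine, methionine and threonine. GARS1 had 259, 273 and 268 CPM in WT and 363, 407 and 454 CPM in RQ, without overlap. VARS1, for valine, had 431, 429 and 434 CPM in WT and 430.4, 454 and 464 CPM in RQ, with overlap. Of the 13 tested mitochondrial synthetases, 0 were called by edgeR or DESeq2, 3 had an unadjusted p under 0.05, and the median was -0.05. With 13 genes, 0 is near the 2.17% called higher over all tested genes. IARS2 had 162, 162 and 158 CPM in WT and 160.4, 151 and 154 CPM in RQ. Together the 5 lists of ISR regulators and amino acid genes held 36 of the 197 genes called higher (18.3%).

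**Figure D3:**
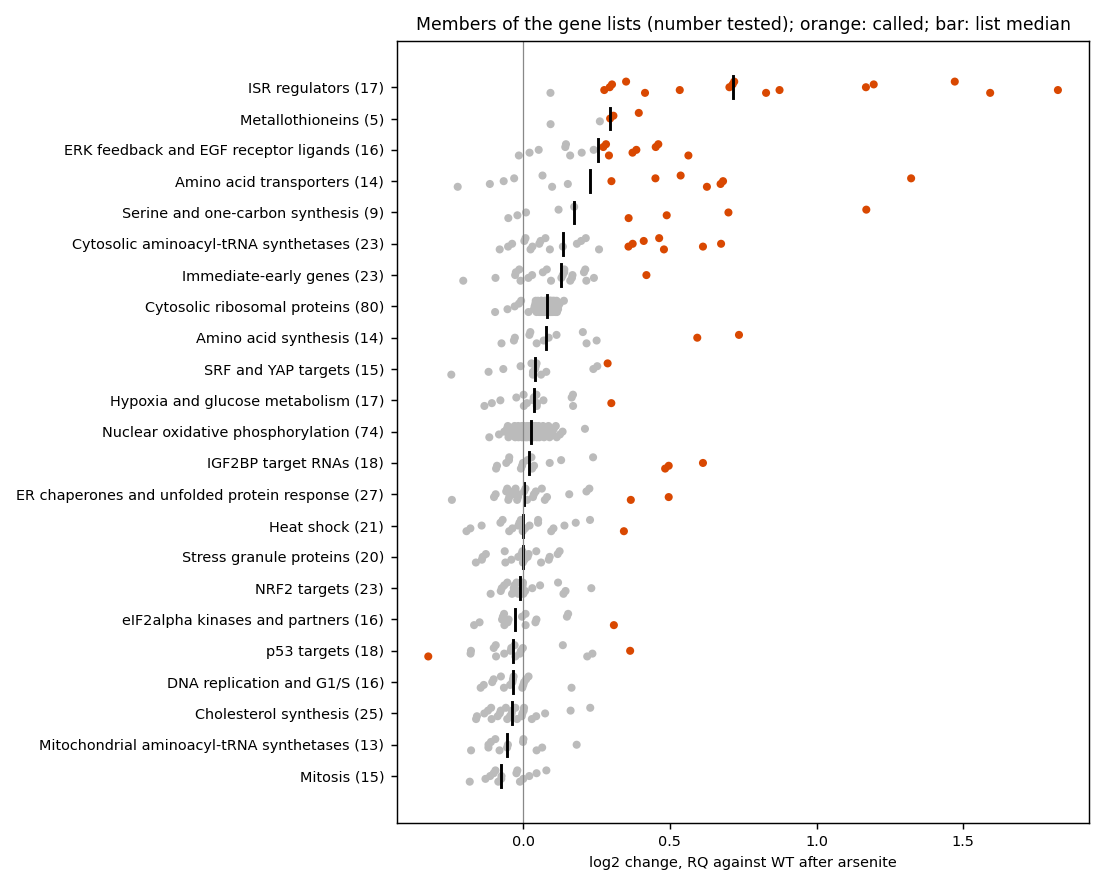
Log2 change of RQ against WT after arsenite for each tested member of the gene lists, with the number tested in brackets, called members in orange and the list median as a black bar. The ISR regulators have a median of 0.71, while mitosis, cholesterol and NRF2 lists sit close to 0.

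ATF4 and C/EBP proteins bind as pairs to an 8-base element, TGATGNAA, and the promoters of the called genes were searched for it. The windows were RefSeq promoters of GRCh38.p14, 250 bases before to 50 bases after a gene's start, and both strands were read. A window was found for 151 of the 197 genes called higher, 48 of the 60 called lower and 7508 of the 9099 tested. The letters TGATGNAA occurred in 25 of the 151 (16.6%), in 0 of the 48 and in 178 of the 7508 tested genes (2.37%). Over all 27305 genes with a window the share was 4.46%. In the 5 lists of ISR and amino acid genes, 13 of the 29 called genes with a window held them (44.8%), and 12 of the other 122 genes called higher did (9.84%). The form TGATGCAA, which is included in the above, occurred in 13 of the 151 (8.61%) and in 47 of the 7508 (0.626%). The motif was chosen with the called genes known, and the 5 lists hold kinds of genes that ATF4 is known to raise. The share in the lists is thus not an independent result. A match is a description of letters and not of binding. The stretches below are from genes called higher in the 5 lists. Of the 12 largest rises only JDP2 is among them, and the 8 genes that rose more than 2-fold are not. The stretches thus do not stand for the largest changes. Each has 26 bases and is printed 5′ to 3′ on the strand that reads TGATGNAA, with those 8 bases in capitals.
CEBPG: cgcggcgtcTGATGCAAcctgccggc, chr19:33374062-33374087, + strand, 42 bases before the start
JDP2: agccggggcTGATGCAAcccgtcccg, chr14:75427997-75428022, + strand, 16 bases before the start
ATF3: aggtcaggaTGATGGAAggctgtcat, chr1:212565207-212565232, + strand, 191 bases before the start
SLC1A5: ggaagtggcTGATGCAAgctgtccag, chr19:46784895-46784920, - strand, 97 bases before the start
SLC38A1: agacccgaaTGATGAAAagggatcag, chr12:46266504-46266529, - strand, 4 bases before the start
SLC7A1: gcgcactgcTGATGAAAcctggcgcc, chr13:29595665-29595690, - strand, 7 bases after the start
GOT1: tgccgagaaTGATGCAAccaatgcaa, chr10:99430806-99430831, + strand, 198 bases before the start
CARS1: cctagaatcTGATGCAAccgccgccc, chr11:3057409-3057434, + strand, 2 bases before the start
AARS1: taacttggcTGATGCAActgcgagaa, chr16:70289677-70289702, + strand, 187 bases before the start
GARS1: ctcggagcaTGATGAAAtcgccgcgt, chr7:30594836-30594861, - strand, 33 bases before the start
MARS1: atccctcgcTGATGCAAccggaaccg, chr12:57488055-57488080, - strand, 4 bases before the start
TARS1: tggaccagcTGATGCAAtcgaaaggc, chr5:33440958-33440983, - strand, 2 bases after the start

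Calls in the lists of other stress programmes ranged from 0 of 23 NRF2 targets to 3 of 5 metallothionein list genes. Over all tested genes 2.17% were called higher. Of the 23 tested members of the NRF2 list, antioxidant genes that arsenite is known to induce, 0 were called by edgeR or DESeq2. In this list 5 had an unadjusted p under 0.05, and the median was -0.01. SLC7A11, which imports cystine for glutathione, was counted with the transporters and not here. The ferritin chains FTL and FTH1 had overlapping groups, with changes of 0.01 and 0.00. Of 21 tested heat shock genes 1 was called higher, HSPA1B, with 712, 696 and 715 CPM in WT and 969, 862 and 868 CPM in RQ. Its near-identical copy HSPA1A shares reads with it, so this value of 0.34 ± 0.09 is uncertain. HSP90AA1 and HSP90AB1, the abundant cytosolic HSP90 genes, had changes of 0.01 and -0.01. Of 27 tested ER chaperone genes, XBP1, the transcription factor of the unfolded protein response, at 0.50 ± 0.12, and HERPUD1, a member of the ER degradation machinery, at 0.37 ± 0.12, were called higher, and the median was 0.00. The chaperones HSP90B1 and CALR were not called, at 0.03 and -0.05. Of the 5 tested metallothionein list genes 3 were called higher, with a median of 0.30. In control cells 3 were called higher too, with a median of 0.35, and 0 had a called difference between treatments. The zinc exporter SLC30A1 had 64.8, 61.4 and 64 CPM in WT and 82.2, 76.3 and 91.5 CPM in RQ, and MT2A had 787, 757 and 757 CPM in WT and 926, 983 and 938 CPM in RQ. MT2A, which resembles the MT1 genes in sequence, lost the call with totals alone, and MT1X lost it in 5 settings, among them without replicate 3 of either group.

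The list of ERK feedback genes and EGF receptor ligands had 16 tested members, 8 called higher and 0 lower, with a median of 0.26. AREG, an EGF receptor ligand, had 226, 233 and 228 CPM in WT and 316, 336 and 363 CPM in RQ. It changed by 0.56 ± 0.10 with an edgeR adjusted p of at most 3.73e-05. ERRFI1, which inhibits the receptor, had 649.7, 659.9 and 655 CPM in WT and 903, 894 and 906 CPM in RQ, a change of 0.46 ± 0.02. DUSP6, a phosphatase of ERK, changed by 0.37 ± 0.03, ETV5, a transcription factor downstream of ERK, by 0.45 ± 0.08, and LIF, an interleukin-6 family cytokine, by 0.39 ± 0.06. The ligands HBEGF (0.29 ± 0.09) and EREG (0.28 ± 0.02) and the inhibitor SPRY4 (0.27 ± 0.02) lay just above the limit of 0.26 on the log2 scale and lost the call with totals alone. HBEGF and SPRY4 also lost it without replicate 3 of either group. PHLDA1 and DUSP5 were not called, at 0.20 and 0.15. Of 23 tested immediate-early genes 1 was called higher, KLF4, at 0.42 ± 0.23, and DESeq2 did not call it. EGR1, which arsenite induces strongly, had 2477, 2153 and 2454 CPM in WT and 2567, 2273 and 2579 CPM in RQ, which overlapped. In the list of SRF and YAP targets AJUBA was called, at 0.29 ± 0.11, and lost the call with totals alone or without replicate 2 of either group.

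Among the p53 targets 1 of 18 rose and 1 fell. BBC3 (PUMA), a proapoptotic BH3-only gene, changed by 0.36 ± 0.05 and SESN1 by -0.32 ± 0.23, and both lost the call in fits of all 24 libraries, SESN1 also without replicate 3 of either group. CDKN1A, the cell cycle inhibitor p21, had 393, 381 and 397 CPM in WT and 424, 423 and 438 CPM in RQ, a change of 0.14 under the limit. NDRG1 was the member called of 17 hypoxia and glucose genes, at 0.30 ± 0.04, and lost the call with totals alone and in fits of all 24 libraries. The lists of cholesterol, stress granule, mitosis, replication, ribosomal protein and nuclear oxidative phosphorylation genes held 25, 20, 15, 16, 80 and 74 tested genes. In these, 0 were called in either direction by edgeR or DESeq2, beside 2.82% of all tested genes by edgeR. Medians were -0.04, 0.00, -0.07, -0.04, 0.08 and 0.03, and 9, 10, 9, 7, 70 and 15 genes, in the same order, had an unadjusted p under 0.05. Changes of 75 of the 80 ribosomal protein genes were above 0, against 4606 of the 9099 tested genes, and their largest change was 0.14. The 13 protein-coding genes of the mitochondrial genome, listed after their values were seen, were all above 0 with a median of 0.17, and 0 passed the fold limit by edgeR or DESeq2, although 13 had an unadjusted p under 0.05.

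Of the list of 18 tested RNAs reported as targets of IGF2BP proteins, 3 were called higher and 0 lower, with a median of 0.02. The list includes RNAs that the paper picked as examples from this series, such as GARS1, HMGA2 and PABPC1. It is thus not independent of these data. GARS1 and XBP1 are in the lists above. The third was HMGA2, a chromatin protein of embryonic tissue, with 163, 161 and 167 CPM in WT and 223, 231 and 233 CPM in RQ. It changed by 0.48 ± 0.04 with an edgeR adjusted p of at most 9.19e-06. In control cells HMGA2 was called higher too, at 0.53. HMGA1 had 3382, 3432 and 3528 CPM in WT and 3904, 4031 and 4271 CPM in RQ, without overlap, but its change of 0.24 was under the limit. ACTB, whose mRNA the protein was first known to localise, had 4219, 4319 and 4444 CPM in WT and 4297, 4474 and 4467 CPM in RQ, which overlapped.

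**Figure D4:**
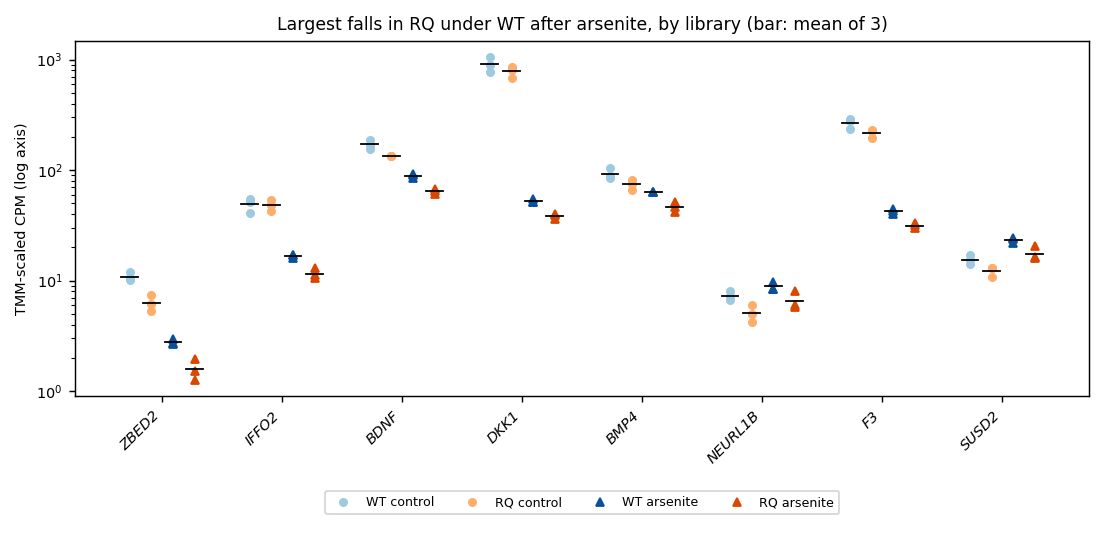
Level of the 8 genes with the largest fall in RQ under WT after arsenite, in TMM-scaled CPM on a log axis, with a point for each library and a black bar for the mean of 3. The RQ arsenite triangles lie below the WT arsenite triangles for each gene, and the gaps are smaller than those of the largest rises.

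The 60 genes called lower had a median WT level of 20.5 CPM after arsenite, beside 42.8 CPM for all tested genes, and 1 of them, SESN1, was in a list. ZBED2, a zinc finger transcription factor, had 2.65, 2.97 and 2.73 CPM in WT and 1.53, 1.27 and 1.96 CPM in RQ, a change of -0.81 ± 0.29 with an edgeR adjusted p of at most 0.0463. These levels are under the 10 CPM of the filter, which ZBED2 passed only through other libraries of the 24. IFFO2 had 17.1, 16.1 and 16.9 CPM in WT and 13, 11.2 and 10.5 CPM in RQ, a change of -0.55 ± 0.14. DESeq2 gave neither an adjusted p. BDNF, a neurotrophin, had 85.1, 90.1 and 92.8 CPM in WT and 64.4, 67.8 and 61.4 CPM in RQ, a change of -0.47 ± 0.11 with an edgeR adjusted p of at most 1.81e-05. DKK1, a secreted Wnt inhibitor, had 51.6, 51.8 and 54.8 CPM in WT and 40.2, 39.5 and 35.8 CPM in RQ, a change of -0.46 ± 0.14. BMP4, a growth factor of the TGF-beta family, had 63, 63.1 and 63.9 CPM in WT and 51.6, 46.1 and 42.2 CPM in RQ, a change of -0.45 ± 0.15. F3, tissue factor of blood clotting, changed by -0.44 ± 0.14. BDNF, DKK1, BMP4 and F3 were called in each of the 17 settings. In control cells BDNF, BMP4 and F3 were called lower too, at -0.35, -0.31 and -0.31, and DKK1 was not called, at -0.20. NEURL1B and SUSD2, at -0.44 ± 0.13 and -0.42 ± 0.15, lost the call in the fits of all 24 libraries.

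The same contrast was then taken in control cells, whose 6 libraries are not used in the arsenite comparison. Here 298 of the 9099 genes were called (3.28%), 189 higher and 109 lower (63.4% higher). Scaling by library totals alone turned this balance, with 100 called higher and 295 lower (25.3% higher). In both treatments 93 genes were called higher, which is 47.2% of the arsenite list and 49.2% of the control list. Another 10 were called lower in both, 16.7% and 9.17% of the lists, and 3 were called in opposite directions. Of the 197 genes called higher after arsenite, 91.9% had a control change above 0, with a median of 0.25, against 4562 of all 9099 tested genes. Of the 60 called lower, 54 had a control change below 0, with a median of -0.14. Across the 9099 genes Pearson's r between the changes in the 2 treatments was 0.554, which describes genes and not independent replicates. Without the replicate block the control comparison called 71 genes.

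Some serine, transporter and synthetase genes were called without arsenite too. PCK2 had 16, 11.9 and 13.8 CPM in WT control and 39.7, 35.6 and 41.8 CPM in RQ control, a change of 1.49 ± 0.15. SLC7A11 changed by 1.46 ± 0.20 and PSAT1 by 1.23 ± 0.21 in control cells, both called. In the control comparison 3 of the 9 serine and one-carbon genes, 6 of the 14 transporters and 7 of the 23 cytosolic synthetases were called higher, and 0 of them lower. For the ISR regulators 7 of 17 were called higher and 2 lower in control cells, with a median of 0.23. For the ERK feedback and ligand genes 2 of 16 were called higher, with a median of 0.02.

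**Figure D5:**
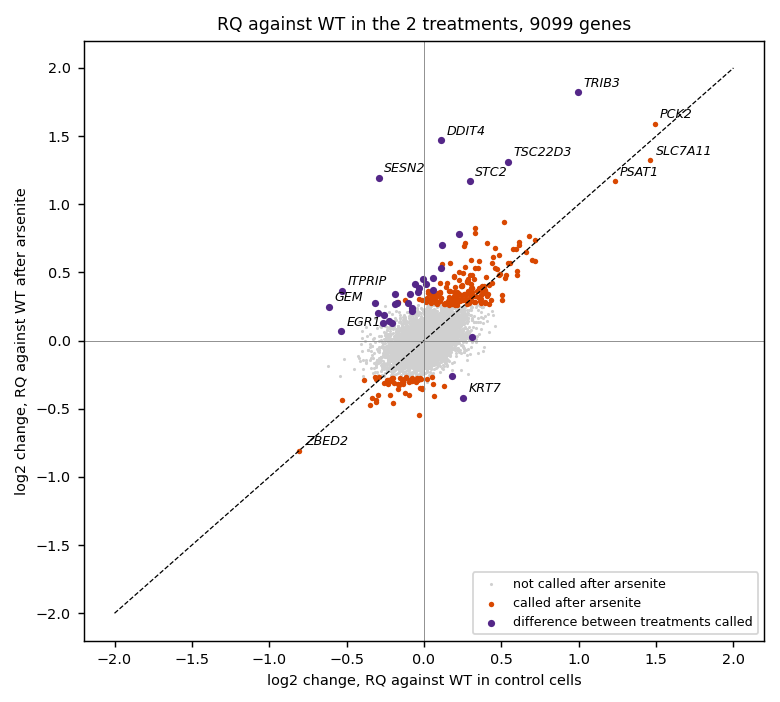
Log2 change of RQ against WT after arsenite (vertical axis) against that in control cells (horizontal axis) for the 9099 tested genes, with the dashed line marking equal change. PCK2, SLC7A11 and PSAT1 lie near the line, while DDIT4, SESN2 and STC2 lie far above it, and purple points are the 34 genes whose difference between treatments was called.

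Whether the RQ difference depended on arsenite was tested as an interaction over the 12 libraries. The interaction called 34 of the 9099 genes (0.374%), 31 with a larger (0.341%) and 3 with a smaller (0.033%) change after arsenite, and 660 (7.25%) had an unadjusted p under 0.05. SESN2 had 14.1, 13.3 and 15.3 CPM in WT control and 12.6, 9.52 and 12.6 CPM in RQ control, so that it was lower in RQ without arsenite (-0.29) and higher with it (1.19). The difference between the changes was 1.47, with an edgeR adjusted p of 7.17e-07. DDIT4 had 16.4, 17.8 and 18.5 CPM in WT control and 20.2, 20.03 and 16.8 CPM in RQ control, which overlapped. Its difference between treatments was 1.35, with an edgeR adjusted p of 7.54e-07. STC2, TRIB3 and TSC22D3 were called higher in both treatments and by more after arsenite, with differences of 0.87, 0.82 and 0.77. For PCK2, SLC7A11 and PSAT1 the difference was 0.10, -0.14 and -0.06 and was not called. Among the ISR regulators the difference was called for 8 of 17, all with the larger change after arsenite, and among the 60 tested genes of the 4 amino acid lists for 1, SLC38A2 (0.45). ATF4, named after its values were seen, was one of the 8, with a change of 0.01 in control cells and a difference of 0.40. Among the immediate-early genes 3 of 23 were called. EGR1 was lower in RQ than in WT control cells, by -0.54, with 81.1, 70.1 and 78.6 CPM against 108, 105 and 121 CPM, and was not called after arsenite. KRT7, a simple epithelial keratin, went the other way, with 16.8, 20 and 16.3 CPM in WT and 19.7, 23.5 and 19.8 CPM in RQ control cells and 5.81, 5.17 and 5.04 CPM in WT and 3.92, 3.85 and 4.1 CPM in RQ after arsenite. Its difference was -0.68, with an edgeR adjusted p of 0.038. Its call after arsenite was lost without WT replicate 1, WT replicate 2 or RQ replicate 2, and in the pooled fits.

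The number of genes with such a difference rested on single libraries. It was 16 without WT control replicate 1, 17 without WT arsenite replicate 1, WT arsenite replicate 3 or RQ control replicate 2, 16 without RQ arsenite replicate 3 and 13 without RQ control replicate 3. In each of these 6 fits, and in both fits of all 24 libraries, edgeR called 0 genes with a smaller change after arsenite, so that KRT7 and the other 2 were not called there. In either direction 333 to 575 genes had an unadjusted p under 0.05 in these fits, and DESeq2 on the 12 libraries called 8 with a smaller change. The replicate numbers paired the libraries within a treatment but not between treatments, and a block within each treatment, chosen after the data were seen, gave 101 genes, 72 larger and 29 smaller after arsenite.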

How the data were processed

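Poly(A) RNA of the IP input was sequenced, and the authors aligned reads to hg38 with STAR 2.7.11b and deposited counts per gene from featureCounts (Subread 2.0.6, stranded, GENCODE 46 per the file headers), not normalized. No batch was given in the sources used here. Groups came from the labels.

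Symbols came from GENCODE 44, which matched 62541 of 63086 genes (99.1%). Protein-coding genes with more than 10 CPM in 12 of 24 libraries were tested (9099). The test was edgeR 4.0.16 (R 4.3.3) quasi-likelihood with TMM factors of 0.975 to 1.03, the replicate number as a block and Benjamini-Hochberg adjustment. The fit had 2 residual degrees of freedom and a common biological coefficient of variation of 0.0274. Same-numbered libraries deviated together (r of deviations from group means 0.148, 0.149 and 0.153 after arsenite, 0.296, 0.53 and 0.478 in control), but not across treatments (0.0175 to 0.0844), so the numbers were taken as pairs within a treatment. No replicates were identical. The labels do not say that the dishes came from separate cultures before plating, so p-values measure the spread between dishes. Pair differences used log2(CPM + 0.5).

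Named were IGF2BP1 and its paralogs, the 12 largest called rises and 8 largest falls whose groups did not overlap, up to 8 called and 2 uncalled members of each list, and the 5 largest differences between treatments in each direction. Members and lists were chosen with earlier results of these data known. Alternatives were DESeq2 1.42.0, other filters, other scaling, all 24 libraries, leaving out libraries and, chosen after seeing the data, a robust fit, a fit without Y396E arsenite replicate 3 and a block within each treatment. The script was tested on simulated data. RNA immunoprecipitation libraries were not analysed here.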

Additional observations from a re-analysis of the deposited data

Results flagged for a closer look

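By the interaction test over 12 libraries, the RQ minus WT difference differed between treatments for 17 of the 113 named genes. Over all 9099 tested genes the test called 34 (0.374%). ITPRIP, GEM, PLEC, POP1 and KRT7 were named only because this test called them, and SESN2, DDIT4 and STC2 partly so. The count of 17 is thus a listing and does not show how often named genes differ. The difference in log2 change was largest for SESN2 (1.47) and DDIT4 (1.35), followed by ITPRIP (0.889), STC2 (0.869), GEM (0.863), TRIB3 (0.816) and TSC22D3 (0.768). It was 0.599 for EGR1, 0.58 for CEBPB, 0.552 for LRATD2, 0.523 for HSPA1B, 0.451 for SLC38A2, 0.394 for ERRFI1 and 0.305 for DUSP6. It was below 0 for PLEC (-0.287), POP1 (-0.444) and KRT7 (-0.675), the genes with a smaller change after arsenite. None of these 3 was called in the edgeR fits of all 24 libraries or without WT control replicate 1, WT arsenite replicate 1 or 3, RQ control replicate 2 or 3, or RQ arsenite replicate 3.

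These genes fall into kinds by their values in each treatment. ITPRIP, GEM and EGR1 were called lower in RQ control cells, at -0.53, -0.62 and -0.54, and stood at 0.37, 0.25 and 0.07 after arsenite, where only ITPRIP was called. STC2 and TRIB3 were called higher in both. PLEC was called higher in control cells (0.31) and had a change of 0.03 after arsenite. POP1 had 0.18 in control cells and -0.26 after arsenite and was called in neither.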

How the results depend on the processing

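After arsenite, 257 genes were called. The count was 417 with a filter of 1 CPM, 433 with no filter beyond 1 count, 159 with DESeq2, which gave no adjusted p to 90 of the 257, 29 above 1.5-fold and 1842 without a fold limit. Fits of all 24 libraries gave 152 with the replicate block and 138 without. In the 6 libraries, 250 were called with no replicate block. Leaving out 1 library gave 212 to 383.

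For control cells, 298 were called as reported. The count fell to 71 with no replicate block, and was 162 with DESeq2, 17 above 1.5-fold and 1151 without a fold limit. All 24 libraries gave 148 with the block and 130 without, and leaving out 1 library gave 264 to 355. Totals alone gave 395.

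The difference between treatments was called for 34 genes, for 20 with no replicate block, 82 with no filter, 9 above 1.5-fold, 22 and 20 in fits of all 24 libraries with and without the block, and 101 with a block within each treatment. Leaving out 1 library gave 13 to 44. Apart from the steps that change the genes tested, the samples or the fold limit, the cause was not tested.

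Of 64 named genes called after arsenite, 40 lost the call above 1.5-fold. Apart from the fold limit, 49 kept it in every setting that gave them an adjusted p, 15 lost it in at least 1, and 0 changed direction. In the 6 libraries, leaving out the replicate block changed the call of 0 named genes. Omitting Y396E arsenite replicate 3, which has counts for 13897 genes, from the pooled fit gave 234. Depth limits genes at a few CPM, such as ZBED2.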

Other observations

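Of 162 non-coding genes with more than 10 CPM in 12 of 24 libraries, 12 were called higher in RQ after arsenite (7.41%) and 1 lower (0.617%), by edgeR's quasi-likelihood test over all gene types. Of all 9261 genes in that fit 2.19% were called higher and 0.702% lower, and the difference between these shares was not tested. MALAT1, an abundant nuclear long noncoding RNA (lncRNA), had 356, 345 and 338 CPM in WT and 488, 531 and 449 CPM in RQ. Its change was 0.49 after arsenite and 0.12 in control cells, where it was not called. NEAT1, the scaffold RNA of nuclear paraspeckles, had 78.7, 65.7 and 74.8 CPM in WT and 93.4, 90.02 and 91.3 CPM in RQ, a change of 0.33, and it was also called in control cells at 0.32. The lncRNAs CYTOR and LINC00511 rose by 0.34 and 0.33. The RNA called lower was LINC02693, at -0.29. RPL7P1, a processed pseudogene called at 0.35, shares sequence with RPL7, so that its value is uncertain, and its RQ libraries had 26.3, 28.7 and 13.1 CPM.

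Genes called higher or lower were spread over the chromosomes. Chromosome 19 held 19 higher and 1 lower among 616 tested genes, and chromosome 1 held 29 and 9 among 939. Median changes per nuclear chromosome lay between -0.01 and 0.03. Called genes differed from all tested genes in exon length, with medians of 3163 bases for those higher, 4586.5 for those lower and 3931 for all, and in WT arsenite level, with medians of 32.1, 20.5 and 42.8 CPM.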
